A study of Arabidopsis thaliana with 9 samples.

Results

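The BGLU and GH9 genes of Arabidopsis thaliana encode the beta-glucosidases of glycoside hydrolase family 1 and the endoglucanases of family 9. They were taken here as every gene whose symbol in the probe annotation is BGLU with a number or GH9 with a subclass letter, and whose probe set is assigned to 1 gene. This gave 35 genes with 1 probe set each, 20 BGLU and 15 GH9, of 13350 genes named in this way and among 22746 probe sets tested. The RefSeq gene table holds 61 genes with such symbols. Of the others, 20 had no probe set named here, and the rest share 3 probe sets between pairs of family genes, which were left out.

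All plants carried LAT52-HF-RPL18, a transgene for epitope-tagged ribosomal protein L18 under a promoter active in pollen. Polysomes were pulled down through the tag, so a signal is meant to stand for ribosome-bound mRNA. It was read on an Affymetrix array and scaled per array (MAS5). The samples called bud are labelled as stage 11 to 12 buds of the flower, those called in vivo were self-pollinated flowers labelled stage 14, and those called in vitro were pollen tubes grown in culture, with 3 biological replicates each. The series' own description differs and speaks of unpollinated styles for bud. The sample labels were followed here, and the bud arrays held bright signals of tapetum genes, as given below. Which other tissues lie behind each bud signal is not settled. The plants of all groups grew at 22 °C under 18 h of light and 6 h of dark. Neither untagged plants nor total RNA were analysed here, so RNA carried over without the tag cannot be told apart.

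Beta-glucosidases remove a glucose from small molecules, and plants use them to release defence compounds, lignin precursors and hormones from stored glucosides, or to trim wall oligosaccharides. The myrosinases, which split glucosinolates, are a branch of the same family. Family 9 endoglucanases cut beta-1,4-glucan chains. Subclass A proteins sit in the membrane, among them KORRIGAN, which acts in cellulose synthesis. Subclass B proteins are secreted, and subclass C proteins are secreted with an added carbohydrate-binding module. A pollen tube grows by extending its wall at the tip, and that wall holds pectin, callose and some cellulose.

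The pull-downs from bud and in vivo material did not hold pollen signals alone. The summed signal of 4 measured genes of green tissue (of 10 listed: RCA, PSAN, PSBY and LHCB4.2) was 31192 to 56986 in bud and 30032 to 45862 in vivo, against 286 to 602 in vitro. Bud arrays summed to between 3271 and 3999 over 6 measured pistil, style and ovule genes of 14 listed, in vivo arrays to between 3521 and 4857, and in vitro arrays to between 227 and 645. Over 10 measured pollen tube genes of 11 listed, the sums ran from 2424 to 5345 in bud, while in vivo they ran from 17056 to 38759 and in vitro from 511448 to 808467. The tapetum genes SHT, AMS, EMS1 and A9, 4 of 11 listed, summed to between 6911 and 9556 in bud, against 517 to 903 in vivo and 108 to 808 in vitro. Most of the in vivo sum was EMS1, with 700, 468 and 827, which was not called between bud and in vivo. A9, SHT and AMS were called lower there, with in vivo means of 14.8, 14.6 and 26.3. The remaining lists were thin and did not move as 1 either. Sums of 3 of 6 sperm genes were 662 to 1067 for bud, 264 to 350 for in vivo and 4608 to 6183 for in vitro arrays. Those of 3 of 6 petal and nectary genes were 268 to 851, 8550 to 8719 and 196 to 527. The high in vivo value of the latter was SWEET9 alone, with a mean of 498 in bud and 8555 in vivo, while RBE and PTL were not called there. Among the sperm genes, only HTR10 was called higher in vitro than in bud, and TET11 fell by 3.45 from bud to in vivo on the log2 scale. The median signal was 175 to 196 on bud and 174 to 187 on in vivo arrays, and 68.6 to 112 on in vitro arrays. Median signals of the hybridisation controls ran from 5995 to 17568 on 7 arrays, but were 78112 for in vitro replicate 3 and 1719 for in vivo replicate 1. In bulk material of this kind, fewer cells of a type and less RNA per cell cannot be told apart, and this applies to each result that follows. The part of these markers in the results was not tested.

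**Figure D1:**
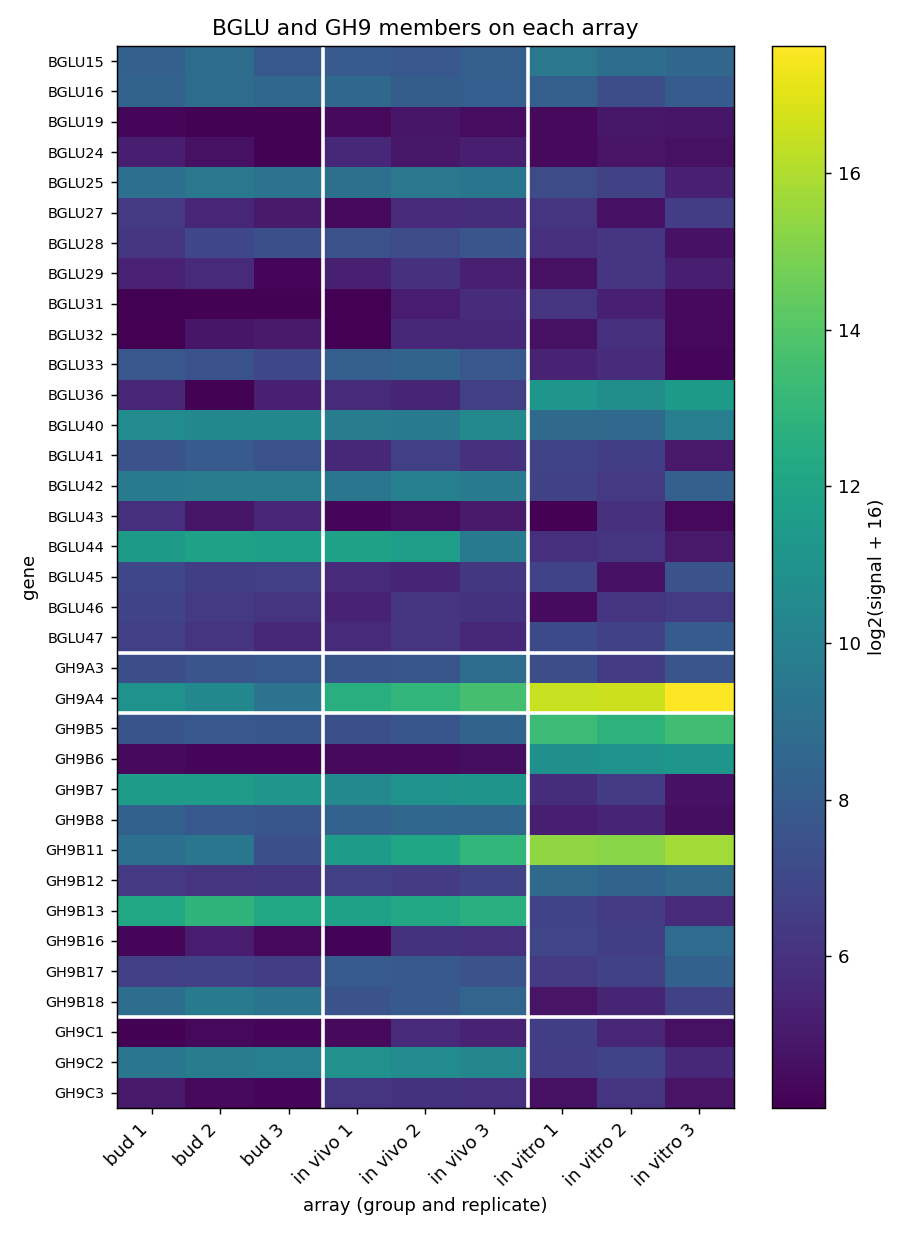
Each row is a BGLU or GH9 gene and each column an array, coloured by log2(signal + 16). White lines separate the 3 groups and the subclasses BGLU, GH9A, GH9B and GH9C. GH9A4, GH9B11, GH9B5, GH9B6 and BGLU36 are bright on all 3 in vitro arrays, and GH9B13, GH9B7 and BGLU44 are bright on bud and in vivo arrays.

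A gene was called changed when limma, fitted to all 9 arrays and adjusted over all probe sets, gave an adjusted p under 0.05. Of the 35 genes, 22 were called in at least 1 of the 3 comparisons, and that share over all probe sets was not worked out. In vivo against bud, 2 were higher and 0 lower, 5.71% of the genes against 4.02% of all probe sets. In vitro against bud, 9 were higher and 12 lower, 60% against 60.9%. In vivo against in vitro, 10 were higher and 9 lower, 54.3% against 59.3%. The share of genes called was therefore near that of the whole array in each comparison. By direction, calls over all probe sets were 2.15% higher and 1.87% lower in vivo than in bud, 20.4% higher and 40.5% lower in vitro than in bud, and 39.4% higher and 20% lower in vivo than in vitro. The comparisons share groups, so they are not independent of each other.

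Both genes called higher in vivo than in bud encode endoglucanases. GH9B11 (AT2G44560), a subclass B endoglucanase, had signals of 509, 647 and 148 in bud, 3028, 4214 and 8544 in vivo, and 42162, 38750.2 and 55336 in vitro. The 3 groups did not overlap, and each step was upward. The log2 fold from bud to in vivo was 3.64 ± 0.54 (SE, adjusted p = 0.0027), a rise of 12.4 times, or a log2 fold of 3.02 without bud replicate 3. The log2 fold from bud to in vitro was 6.87 ± 0.54 (SE, adjusted p = 8.7e-07), or 6.25 without that array.

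GH9A4 (AT3G43860), named in the membrane subclass A, had signals of 2018, 1322 and 586 in bud, 6364, 8261 and 12726 in vivo, and 90952, 100539 and 202426 in vitro. It too stepped upward with no overlap between groups. The log2 fold was 2.89 ± 0.50 from bud to in vivo (SE, adjusted p = 0.00678) and 6.70 ± 0.50 from bud to in vitro (SE, adjusted p = 5.94e-07). Both genes were brightest, among in vivo arrays, on replicate 3, which also had the highest pollen tube marker sum of its group, 38759 against 17056 and 18365. Bud replicate 3 was the dimmest bud array for both, and its pollen tube marker sum of 2424 was the lowest in bud, against 5345 and 5028. PLIM2a alone gave 2968, 2780 and 995 of the sums on bud replicates 1, 2 and 3. Whether the pollen tube content of an array bears on either gene was not tested. Both rises from bud to in vivo passed in all 18 alternative settings. Among all 22746 probe sets, the rise of GH9B11 from bud to in vivo was the 14th largest and that of GH9A4 the 80th.

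**Figure D2:**
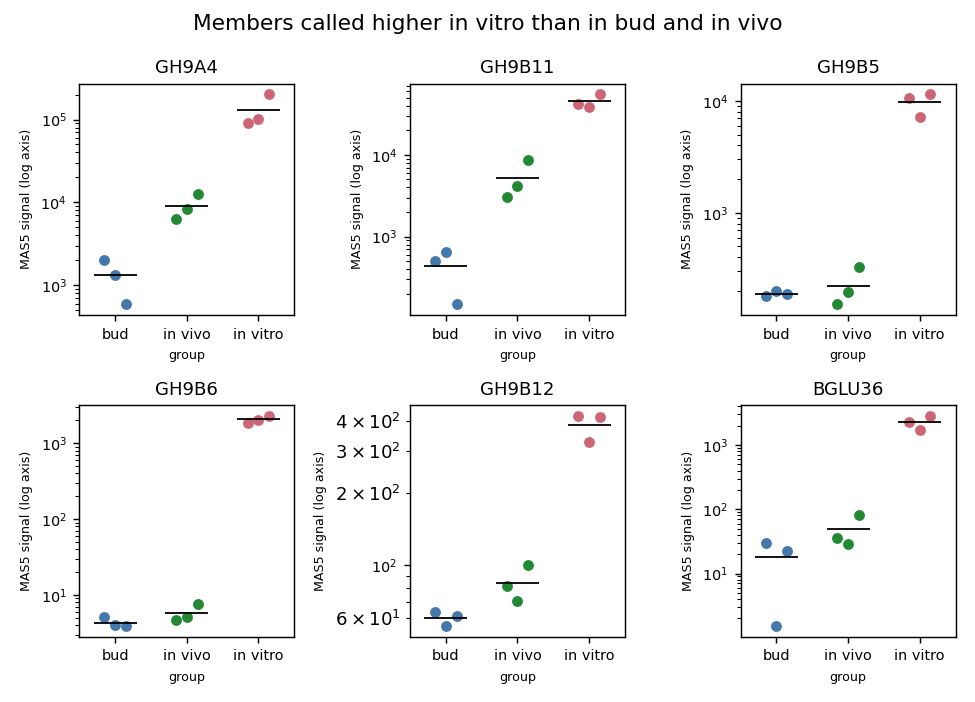
MAS5 signal on a log axis for 6 genes called higher in vitro than in bud and in vivo, with a point per array and a line at the group mean. GH9A4 and GH9B11 rise from bud to in vivo and again to in vitro. GH9B5, GH9B6, GH9B12 and BGLU36 were not called between bud and in vivo and are brighter on all in vitro arrays. The bud points of BGLU36 spread widely.

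The other genes called higher in cultured tubes than in bud were not called between the 2 kinds of flower material. GH9B6 (AT1G23210), a secreted endoglucanase, had 5.08, 4.01 and 3.88 in bud, 4.62, 5.10 and 7.71 in vivo, and 1862, 2042 and 2291 in vitro. Its 6 flower values all lay under 8, and no tube array came near them. The log2 fold from bud to in vitro was 6.67 ± 0.29 (SE, adjusted p = 5.97e-08). Because its bud signals lie under the offset of 16 added before the log, this value depends on the offset, and it was 8.60 with an offset of 1. In vivo against in vitro, GH9B6 fell by 6.57 ± 0.29 (SE, adjusted p = 9e-08), or by 8.27 with an offset of 1.

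GH9B5 (AT1G19940), of the same subclass, had 179, 199 and 187 in bud, 151, 194 and 325 in vivo, and 10669, 7214 and 11496 in vitro. Bud and in vivo arrays overlapped, and no in vitro array came near either. It rose by 5.56 ± 0.36 from bud to in vitro (SE, adjusted p = 2.27e-07). Its log2 fold from bud to in vivo was 0.16 ± 0.36 (SE, adjusted p = 0.989).

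BGLU36 (AT1G51490) belongs to the myrosinase branch of the beta-glucosidases. Its signals were 29.8, 1.52 and 22.3 in bud, 36.0, 29.0 and 81.6 in vivo, and 2289.8, 1739 and 2838 in vitro. It was dim on each flower array and bright on each tube array. The log2 fold from bud to in vitro was 6.17 ± 0.45 (SE, adjusted p = 4.77e-07), or 7.53 with an offset of 1. The log2 fold from bud to in vivo, 0.97 ± 0.45 (SE, adjusted p = 0.444), did not pass.

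Of 20 BGLU genes, 2 were called higher in vitro than in bud, BGLU36 and BGLU47, where 20.4% of all probe sets were. BGLU15 joined them under quantile normalization, and BGLU15, BGLU19, BGLU24, BGLU29, BGLU31 and BGLU32 with equal array medians. BGLU47 (AT4G21760) had signals of 83.4, 53.2 and 34.3 in bud against 121, 88.6 and 238 in vitro, and its call (log2 fold 1.13 ± 0.41 SE, adjusted p = 0.0319) was lost without bud replicate 2, bud replicate 3 or in vitro replicate 3, with the replicate number as a block, and with the 6 bud and in vitro arrays alone. In vivo it had 34.7, 54.7 and 32.6, below each tube array.

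Also higher in vitro were GH9B12, GH9B16 and GH9C1. GH9B12 (AT2G44570) had 63.9, 55.6 and 61.4 in bud, 81.7, 70.9 and 101 in vivo, and 422, 327 and 416 in vitro, with a log2 fold of 2.40 ± 0.30 from bud to in vitro (SE, adjusted p = 2.86e-05). The 3 groups did not overlap, though the step from bud to in vivo did not pass (log2 fold 0.39 ± 0.30 SE, adjusted p = 0.831). GH9C1 (AT1G48930), a subclass C endoglucanase, stayed dim throughout, with 1.69, 4.25 and 2.71 in bud, 4.96, 37.8 and 25.6 in vivo, and 80.4, 30.5 and 9.31 in vitro. Its in vitro call (log2 fold 1.36 ± 0.50 SE, adjusted p = 0.0336) was lost when any bud array, in vitro replicate 1 or in vitro replicate 2 was left out, and with an offset of 64. As its bud signals lie under the offset, the size depends on it, and the log2 fold was 2.99 with an offset of 1 (adjusted p = 0.0163).

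Of the 12 genes called lower in tubes than in bud, none was called between bud and in vivo, and several were bright in both. GH9B13 (AT4G02290), a secreted endoglucanase, had 4481, 7456 and 4729 in bud, 3672, 4428 and 5966 in vivo, and 95.5, 70.3 and 36.4 in vitro. The flower groups overlapped and each tube array was far below them. It fell by 6.09 ± 0.39 in tubes against bud on the log2 scale (SE, adjusted p = 2.1e-07), and from bud to in vivo its log2 fold was -0.23 ± 0.39 (SE, adjusted p = 0.977).

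GH9B7 (AT1G75680), of the same subclass, had 2863, 2947 and 2292 in bud, 1370.0, 2085 and 2160.1 in vivo, and 42.2, 72.0 and 10.7 in vitro. All in vivo arrays lay below all bud arrays, but the step was small (log2 fold -0.55 ± 0.43 SE, adjusted p = 0.843). The drop to in vitro was not: it fell by 5.71 ± 0.43 (SE, adjusted p = 6.8e-07).

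GH9C2 (AT1G64390), with the carbohydrate-binding module of its subclass, had 666, 892 and 937 in bud, 1907, 1518 and 1192 in vivo, and 75.4, 98.3 and 30.9 in vitro. Each in vivo array was above each bud array, and the tube arrays were lowest. The rise from bud to in vivo did not pass (log2 fold 0.86 ± 0.39 SE, adjusted p = 0.422). In vivo against in vitro the log2 fold was 4.28 ± 0.39 (SE, adjusted p = 3.09e-06).

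GH9B8 (AT2G32990) had 294, 211 and 193 in bud, 302, 389 and 363 in vivo, and 20.5, 27.7 and 7.67 in vitro, and fell by 2.87 ± 0.34 from bud to in vitro (SE, adjusted p = 2.08e-05). GH9A3 (AT4G24260), also known as KOR3 and related to KORRIGAN, was called in none of the comparisons, with 145, 183 and 205 in bud, 180, 191 and 443 in vivo, and 138, 73.6 and 181 in vitro. Its in vivo and bud arrays overlapped, and so did its bud and in vitro arrays.

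Among beta-glucosidases, BGLU44 (AT3G18080) had the largest fall in vitro. Its signals were 2836, 3613 and 3312 in bud, 3549, 3135 and 773 in vivo, and 42.9, 54.0 and 16.4 in vitro. In vivo replicate 3 was dim for its group. Its green tissue marker sum of 38891 lay between those of the other in vivo arrays, 30032 and 45862. Its pistil, style and ovule sum of 3521 was the lowest of the group, against 4857 and 4300. Its pollen tube sum of 38759 was the highest, against 17056 and 18365. Whether these bear on BGLU44 was not tested. BGLU44 fell by 5.99 ± 0.54 from bud to in vitro (SE, adjusted p = 2.41e-06). Its log2 fold in vivo against in vitro was 5.34 ± 0.54 (SE, adjusted p = 6.77e-06), or 6.04 without in vivo replicate 3.

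BGLU42 (AT5G36890), known in roots for releasing iron-binding coumarins from their glucosides, had 752, 854 and 899 in bud, 649, 969.8 and 782 in vivo, and 87.0, 65.0 and 284 in vitro. The flower groups overlapped and the tube arrays were lower, with in vitro replicate 3 the highest of them. It fell by 2.64 ± 0.46 from bud to in vitro (SE, adjusted p = 0.000374). BGLU25 (AT3G03640) had 499.7, 695 and 594 in bud, 530.3, 672 and 629 in vivo, and 133, 85.6 and 22.0 in vitro, and fell by 2.87 ± 0.46 (SE, adjusted p = 0.000204).

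BGLU40 (AT1G26560) differed less between groups, with 1529, 1344 and 1325 in bud, 878, 749 and 1388 in vivo, and 417, 401 and 916 in vitro. In vivo and in vitro arrays overlapped through in vitro replicate 3. It fell by 1.35 ± 0.39 from bud to in vitro (SE, adjusted p = 0.0107). Dimmer genes that fell in vitro were BGLU33 (log2 fold -2.25), BGLU41 (log2 fold -1.50) and BGLU28 (log2 fold -1.21). BGLU33 (AT2G32860) had 201, 165 and 114 in bud, 270.2, 315 and 196 in vivo, and 26.5, 39.5 and 4.02 in vitro, with each tube array below each flower array. The call of BGLU28, known for breaking down glucosinolates under sulphur shortage, was lost in 10 of 18 alternative settings, and that of BGLU41 without bud replicate 2 or in vitro replicate 3.

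**Figure D3:**
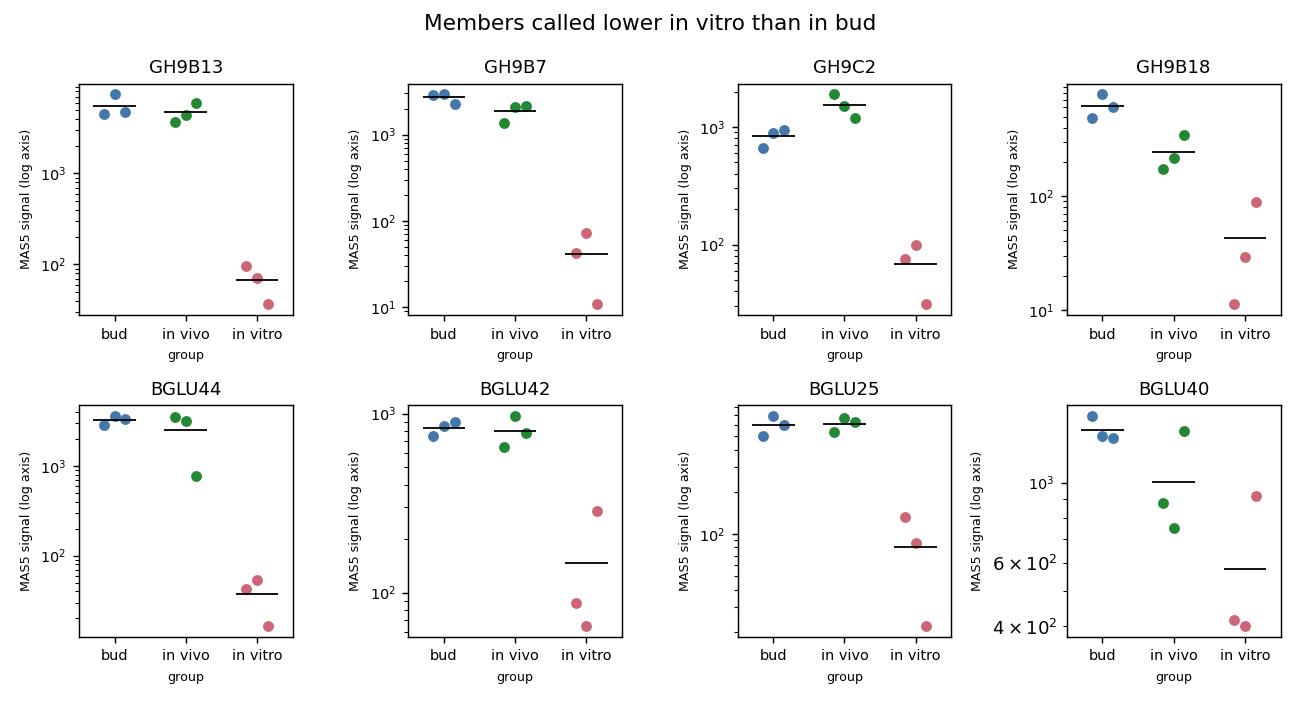
MAS5 signal on a log axis for 8 genes called lower in vitro than in bud, with a point per array and a line at the group mean. For GH9B13, GH9B7, BGLU44, BGLU42 and BGLU25 all bud and in vivo points lie above all in vitro points, with 1 in vivo array of BGLU44 dimmer than the rest of its group. BGLU40 has in vitro replicate 3 above 2 of the in vivo arrays.

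Array scaling bears on the comparison of in vitro with bud. Over all probe sets, the middle log2 fold (median) was -0.42 as deposited, 0.22 with quantile normalization and 0.63 with equal array medians. The 9 rises and 12 falls became 11 rises and 9 falls with quantile normalization and 17 rises and 8 falls with equal medians. The split of all calls moved from 4645 higher and 9214 lower to 6827 and 6232, and to 9490 and 6154. All 9 rises were called under both scalings, and of the 21 calls 18 and 17 remained. The falls of BGLU28, BGLU40 and BGLU41 were lost under both, and that of BGLU33 with equal medians. Relative to the median of all probe sets, the log2 fold was 7.29 for GH9B11, 7.13 for GH9A4, 7.10 for GH9B6, -5.67 for GH9B13 and -5.57 for BGLU44. For in vivo against in vitro the median was 0.36, and -0.26 and -0.67 under these scalings. The 10 higher and 9 lower became 9 and 10 with quantile normalization and 9 and 13 with equal medians. For the 35 genes the median log2 fold was 0.39 in vivo against bud (all probe sets, -0.02), -0.04 in vitro against bud and 0.12 in vivo against in vitro.

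**Figure D4:**
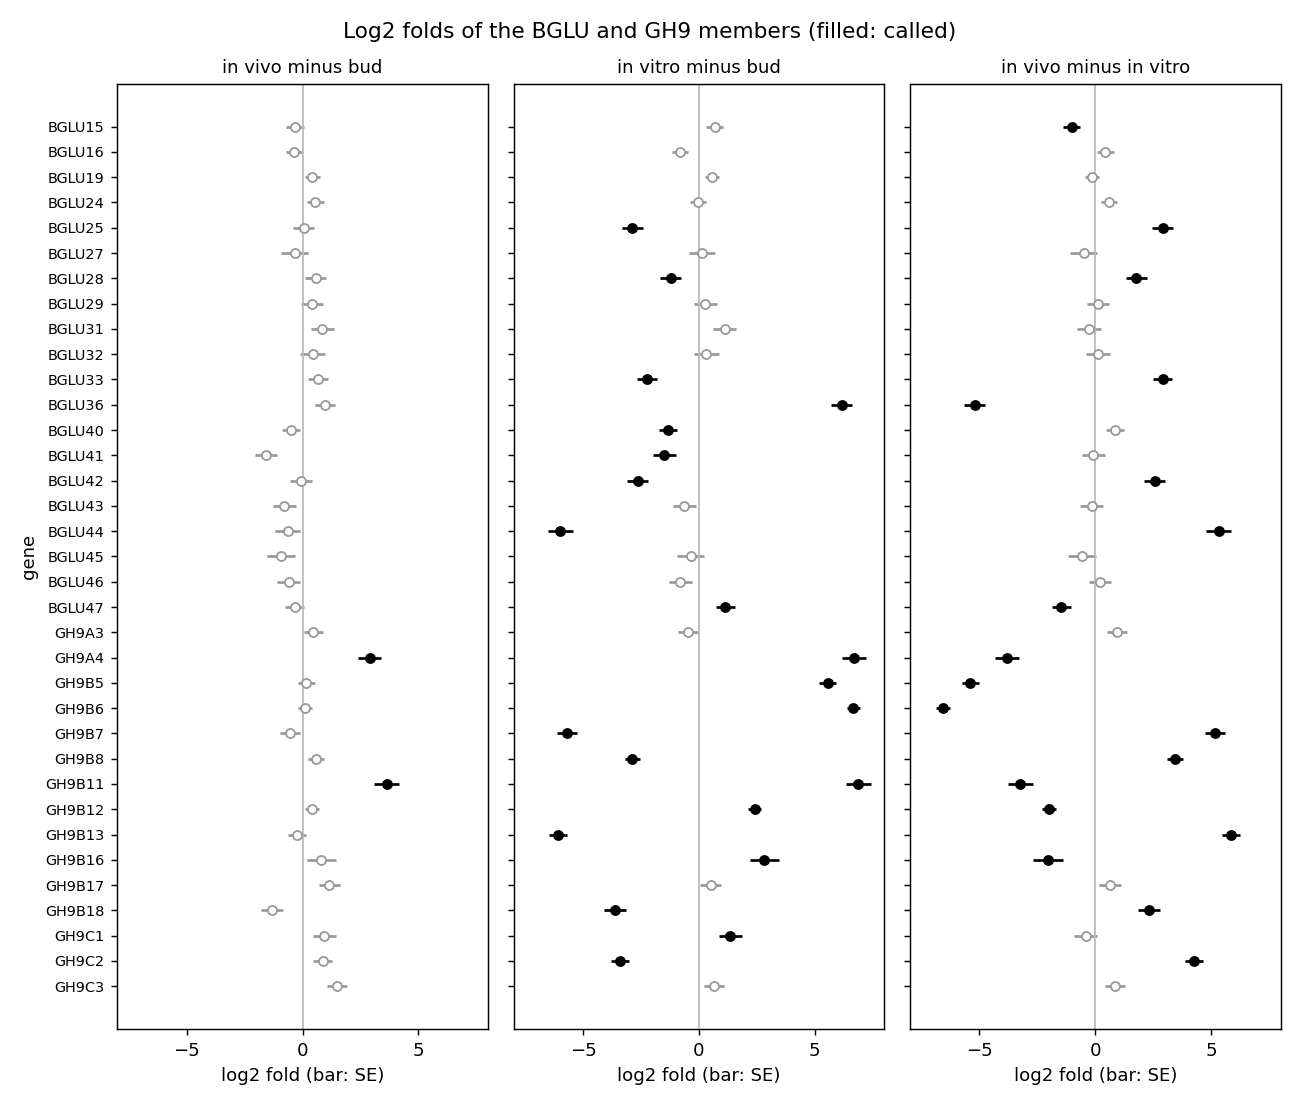
Log2 fold of each BGLU and GH9 gene in the 3 comparisons, with bars for the standard error of the fit. Filled points passed an adjusted p under 0.05. In vivo against bud, GH9A4 and GH9B11 are filled, and in the comparisons with in vitro filled points lie on both sides of 0.

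By family, 2 of 15 GH9 genes (13.3%) were called between in vivo and bud and 0 of 20 BGLU genes, against 4.02% of all probe sets. Between in vitro and bud, 12 of 15 GH9 genes were called, 7 higher and 5 lower, and 9 of 20 BGLU genes, 2 higher and 7 lower. These are 80% and 45%, against 60.9% of all probe sets (20.4% higher and 40.5% lower). Whether the families differ was not tested. All 3 group means were under 100 for 9 BGLU genes and 2 GH9 genes. Between in vitro and bud, 0 of those 9 and 1 of those 2 were called. The other 11 BGLU and 13 GH9 genes had a group mean of at least 100. The 60.9% includes dim probe sets too, so the families are not set against it at like brightness. In a fit of the 16478 probe sets with a group mean of at least 100, 13060 were called. Of the 10 subclass B genes, 9 were called between in vitro and bud, 5 higher and 4 lower, 90% against the same 60.9%. All 10 had a group mean of at least 100, so the 13060 of 16478 is their closer match.

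For 13 of the 35 genes the in vivo arrays lay all above or all below the bud arrays, which held for 22% of all probe sets. Of these 9 were higher in vivo and 4 were lower, and the 22% covers both directions. The 9 included all 3 subclass C genes, of which GH9C1 and GH9C3 had all group means under 100. Only GH9A4 and GH9B11 of the 13 passed the test. GH9C3 (AT4G11050) came nearest, with 16.7, 5.48 and 2.98 in bud and 54.7, 49.9 and 45.9 in vivo (log2 fold 1.48 ± 0.43 SE, adjusted p = 0.099). BGLU41 (AT5G54570) had 171, 232 and 159.8 in bud and 31.3, 85.0 and 47.6 in vivo (log2 fold -1.58 ± 0.49 SE, adjusted p = 0.133). When the fit used the 6 bud and in vivo arrays alone, GH9C3 and GH9B17 were also called higher and BGLU41 and GH9B18 lower, giving 4 higher and 2 lower, with 1378 calls over all probe sets in place of 915.

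Several of these genes are direct neighbours in the genome, with 0 protein-coding genes between them in the TAIR10.1 annotation, and neighbours did not share 1 pattern. GH9B16, GH9B17 and GH9B18 follow each other. GH9B16 (AT4G38990) had 3.22, 19.6 and 4.75 in bud, 2.19, 51.3 and 46.2 in vivo, and 105, 78.8 and 435 in vitro, with in vitro replicate 3 well above the others. It was higher in vitro than in bud (log2 fold 2.83 ± 0.64 SE, adjusted p = 0.00244), or 4.28 with an offset of 1 and 2.14 without in vitro replicate 3. Its difference from in vivo (log2 fold -2.03, adjusted p = 0.0175) was lost without in vivo replicate 1 (-1.42), without in vitro replicate 3 (-1.33) and with an offset of 1 (-2.96, adjusted p = 0.057).

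GH9B17 (AT4G39000) had 84.9, 85.9 and 76.2 in bud, 231, 213 and 169 in vivo, and 67.9, 88.4 and 299 in vitro, and was not called in any comparison. With quantile normalization or equal medians GH9B17 was called higher in vitro than in bud, as GH9B16 was. Without in vitro replicate 3 it was called higher in vivo than in vitro. Its in vivo arrays lay above all bud arrays, and in vitro replicate 3 again stood far above the other tube arrays. GH9B18 (AT4G39010) ran the other way, with 482, 786 and 603 in bud, 172, 217 and 343 in vivo, and 11.2, 29.0 and 88.1 in vitro. The 3 groups of GH9B18 stepped downward with no overlap. It fell by 3.64 ± 0.48 from bud to in vitro (SE, adjusted p = 4.76e-05), and the step from bud to in vivo did not pass (log2 fold -1.32 ± 0.48 SE, adjusted p = 0.234).

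GH9B11 and GH9B12, also adjacent, were both higher in vitro than in bud, by log2 folds of 6.87 and 2.40. BGLU43 and BGLU44 are adjacent as well. BGLU43 (AT3G18070) had signals of 1.06 to 43.5 over all arrays and was called in no comparison, whereas BGLU44 was called lower in vitro. Levels of different probe sets cannot be set against each other, so neighbours are compared by the changes within each probe set.

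The adjacent BGLU15, BGLU28 and BGLU29 differed in their calls, but were not tested against each other. BGLU15 (AT2G44450), which acts on flavonol glycosides, had 287, 442 and 206 in bud, 232, 201 and 273 in vivo, and 668, 489.9 and 353 in vitro. The tube arrays lay above all in vivo arrays but overlapped bud. It was called only between in vivo and in vitro (log2 fold -1.01 ± 0.37 SE, adjusted p = 0.0354), and that call was lost without in vivo replicate 1, in vivo replicate 2, in vitro replicate 1 or in vitro replicate 2. BGLU28 (AT2G44460) was higher in vivo than in vitro, with 158, 125 and 185 against 46.2, 58.7 and 10.2 (log2 fold 1.78 ± 0.45 SE, adjusted p = 0.00515), a call lost under both scalings. BGLU29 was dim, with group means of 21.0, 30.4 and 29.9 in bud, in vivo and in vitro, and not called. At that level the lack of a call does not set it apart from its neighbours. The pairs BGLU45 and BGLU46, which release lignin precursors from their glucosides, and BGLU31 and BGLU32 had group means under 100 and no call, and of the pair BGLU16 and BGLU27 neither was called.

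**Figure D5:**
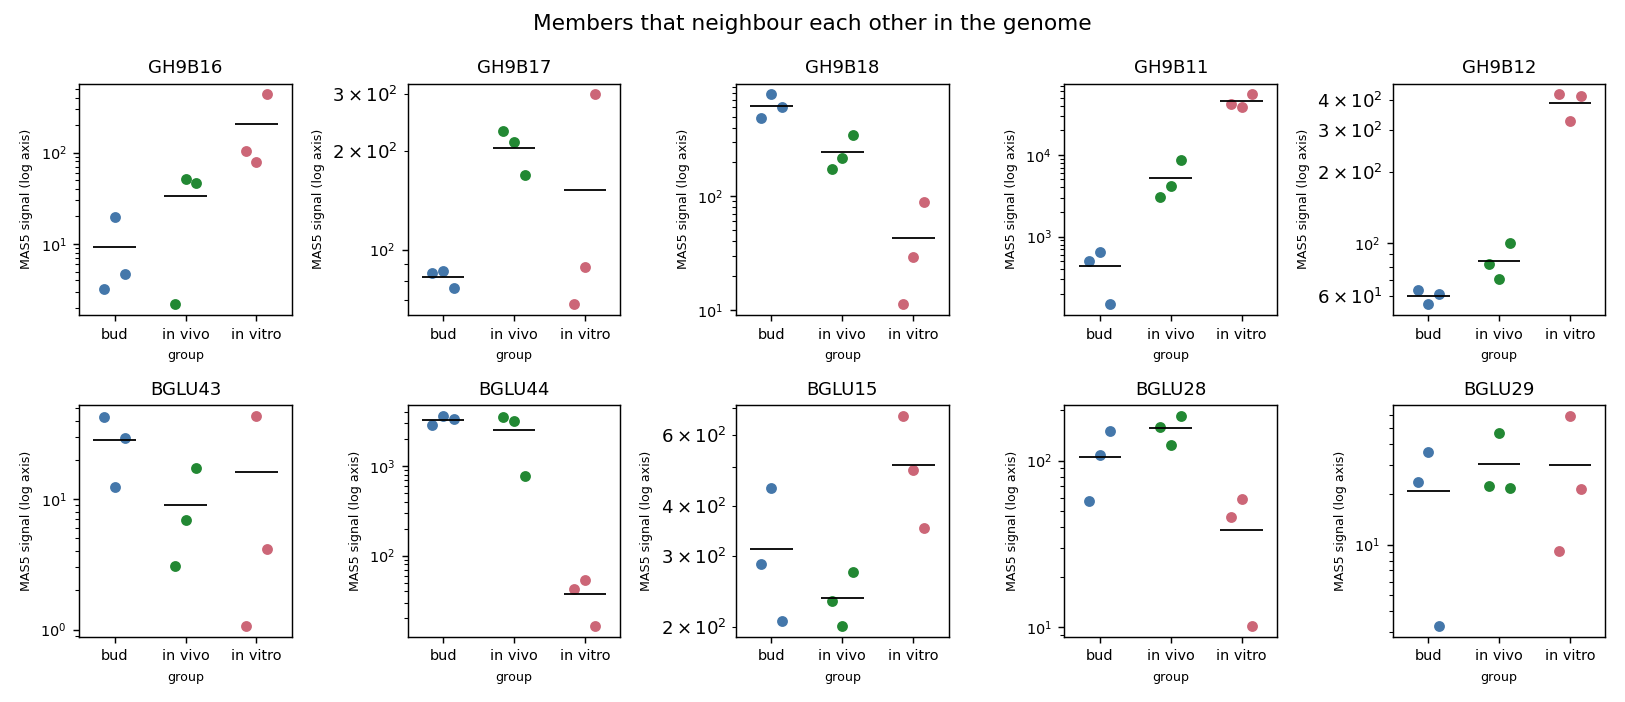
MAS5 signal on a log axis (ranges differ between panels) for neighbouring genes, with a point per array and a line at the group mean. GH9B16 is highest in vitro and GH9B18 in bud, GH9B11 and GH9B12 are both highest in vitro, and the BGLU44 points drop in vitro while those of BGLU43 overlap between all groups.

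In all, 13 of the 35 genes were called in no comparison. Of these, 10 had group means under 100 throughout, and BGLU16, GH9A3 and GH9B17 had a group mean of at least 100. The share of all probe sets called in no comparison was not worked out.

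Related enzymes under other names were thinly measured. ATA27 (AT1G75940), a beta-glucosidase of the anther also named BGLU20, had 7701, 13756 and 11345 in bud against 41.3, 4.11 and 160 in vivo and 26.5, 4.84 and 67.7 in vitro. It was bright in bud alone, the group with the highest tapetum marker sums. PYK10 (AT3G09260), the root endoplasmic reticulum body beta-glucosidase also named BGLU23, had group means of 23.5, 31.6 and 45.4 in bud, in vivo and in vitro and was not called. Its in vitro mean rested on replicate 3, with 3.42, 5.10 and 128 on the tube arrays. The log2 fold from bud to in vitro was 0.00 ± 0.66 (SE). Of 39 genes with a family 1 or family 9 name outside the 35, these 2 had a probe set with 1 named gene. The 39 include the BGLU and GH9 genes counted at the start as without a probe set or on shared probe sets.

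Among other hydrolases of walls and glycosides, 12 of 70 listed genes were measured. In vitro against bud, 3 were higher and 5 lower (median log2 fold -0.39), where 20.4% and 40.5% of all probe sets were. The rises were those of XTH29 (4.39 ± 0.33 SE), a xyloglucan endotransglucosylase/hydrolase, BGAL16 (4.32 ± 0.37 SE), a beta-galactosidase, and cwINV6 (3.65 ± 0.47 SE), named as a cell wall invertase. XTH16 fell by 4.18 ± 0.38 (SE, adjusted p = 2.31e-06). The only call from bud to in vivo was a rise: XTH19 (AT4G30290) went from 149, 212 and 246 to 1095, 762 and 923 (log2 fold 2.12 ± 0.44 SE, adjusted p = 0.0179). In vivo against in vitro 6 were higher and 3 lower, where 39.4% and 20% of all probe sets were. From bud to in vivo, 4.02% of all probe sets were called. Whether the counts of this list differ from these shares was not tested.

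Of 64 listed genes for the synthesis of wall polysaccharides, 9 were measured, none of them a cellulose or callose synthase. They are CSL genes, which make mannan, xyloglucan and other backbones, and COB, which directs cellulose deposition. In vitro against bud, 2 were higher and 6 lower (median log2 fold -2.28), where 20.4% and 40.5% of all probe sets were. CSLC12 rose by 5.47 ± 0.61 (SE, adjusted p = 1.14e-05) and CSLC6 by 3.04 ± 0.41 (SE, adjusted p = 5.97e-05). COB fell by 5.46 ± 0.44 (SE, adjusted p = 9.91e-07). None of the 9 was called from bud to in vivo, where 4.02% of all probe sets were. In vivo against in vitro 7 were higher and 2 lower, where 39.4% and 20% of all probe sets were. Whether the counts of these 9 genes differ from such shares was not tested.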

How the data were processed

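The 9 arrays measured RNA from polysome pull-downs through tagged RPL18. The deposited values are intensity values on a linear scale, 1 per probe set and array, made with MAS5 per the submitters' processing notes (version not given in the sources used here), and each array was scaled. The trimmed mean was 500.0 to 500.1 on each array. Detection calls were not used here. Of 22810 probe sets, 64 controls were left out. Genes come from the platform annotation, which named 1 gene for 13513 probe sets and several for 503. Loci and neighbours come from RefSeq TAIR10.1, and no coordinates are given because the build behind the probe sets is not given.

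Values were taken as log2(value + 16), without filter or scaling. A linear model with a mean per group was fitted with limma 3.58.1 in R 4.3.3 to the 9 arrays together, and its two-sided test was used with Benjamini-Hochberg adjustment over all 22746 probe sets. The fit was tested on simulated data. An exact permutation test of 3 against 3 cannot go below p = 0.1 and was not used. SE is that of the fit. The number of arrays limits the precision. The genes and lists were chosen with earlier results of these data known. Signals on every array are printed for the 14 genes called between in vivo and bud or with a group mean of at least 500, and for some others chosen after their values were seen. Replicate numbers did not pair the arrays (correlations of same-numbered deviations -0.046 to 0.073). Alternatives were offsets of 1 and 64, quantile and equal-median scaling, a filter on dim probe sets, the 6 arrays alone, a replicate block, trended variance and leaving out arrays.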

Additional observations from a re-analysis of the deposited data

How the results depend on the processing

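Over the 3 comparisons, 42 calls were made on BGLU and GH9 genes, and 32 of them held in every one of the 18 alternative settings, the last of which, without in vivo replicate 1 and in vitro replicate 3 together, was chosen after seeing the data. The other 10 concern BGLU15, BGLU28, BGLU33, BGLU40, BGLU41, BGLU47, GH9B16 and GH9C1. No called direction reversed. Of genes not called, BGLU24 had a log2 fold of 1.02 between in vitro and bud with equal medians (adjusted p = 0.035), against -0.04, and BGLU16 had -0.81 in vivo against in vitro with quantile normalization (adjusted p = 0.0453), against 0.44. The cause was not tested.

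Calls over all probe sets between in vivo and bud, 915 in the fit reported, numbered 1378 when fitted on the 6 arrays alone, 579 under an offset of 1, and between 541 and 1292 when 1 array was left out. The genes called higher there were 4 and lower 2 with the 6 arrays alone. With 1 array left out they were 2 to 3 higher and 0 to 1 lower, and with an offset of 64, 1 was lower (GH9B18). The rise count between in vitro and bud was 17 with equal medians. The replicate block gave 784 calls over all probe sets between in vivo and bud, and 2 higher and 0 lower among the genes. It lost the calls of BGLU28 and BGLU47 between in vitro and bud and changed no other call of a BGLU or GH9 gene. Flower signals under the offset, as for GH9B6, leave the size of a fold uncertain. The same holds for falls with tube signals near or under it. From bud to in vitro, the log2 fold of GH9B7 was -6.33 with an offset of 1, against -5.71. That of BGLU44 was -6.54, against -5.99.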

Other observations

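The 3 probe sets that the annotation assigns to pairs of family genes were left out, since the signals of paired genes cannot be told apart. Of 2 such sets for GH9B pairs, the first had signals of 8.24, 3.51 and 1.53 in bud, 10.6, 2.79 and 38.5 in vivo, and 1864, 980.5 and 612 in vitro, and rose in limma from bud to in vitro (log2 fold 5.70 ± 0.48 SE). The second had 85.6, 95.7 and 93.6 in bud, 425, 195 and 113 in vivo, and 13.1, 118 and 67.4 in vitro. It was not called in vitro against bud (log2 fold -0.64 ± 0.57 SE), and was higher in vivo than in vitro (log2 fold 1.74 ± 0.57 SE). The set for a BGLU pair had 26.0, 6.78 and 1.63 in bud, 8.09, 37.6 and 55.8 in vivo, and 128, 49.4 and 89.3 in vitro, and rose from bud to in vitro (log2 fold 1.96 ± 0.50 SE).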
